A study of Mus musculus with 8 samples.

Results

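The hypoxia response genes described here are 10 genes of the pathway by which cells sense low oxygen, taken by symbol from the 56465 features of the deposited table, and each matched exactly 1 feature. They are Hif1a and Epas1, which encode the oxygen-regulated subunits of the transcription factor HIF, Egln1 and Egln3, which encode prolyl hydroxylases that mark those subunits for destruction, and the HIF targets Vegfa, Adm, Bnip3, Pdk1, Ankrd37 and Ndrg1. RNA was sequenced from 8 mouse retinas labelled C57Bl/6J, collected on day 4 of a detachment that 10 µl of sodium hyaluronate, placed under the retina, had produced. The WT group held replicates 3, 4, 5 and 7 (3 males and 1 female, 3 right eyes and 1 left), and the TG group, mice expressing human transferrin, the iron carrier of plasma, held replicates 2, 5, 6 and 8 (2 males and 2 females, 2 right eyes and 2 left). All 8 retinas were detached, and retinas left attached were not analysed here. The sources used here do not give the promoter that drives the transgene, the tissue it acts in, or the age and breeding of the mice. By its title the study asks how transferrin protects a detached retina, and its 1 comparison is of TG with WT. Nothing in the labels says outright that each retina came from its own mouse, so p-values measure only the spread between these samples.

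When oxygen is plentiful, the hydroxylases use it together with iron to modify the HIF alpha subunits, which the Vhl ubiquitin ligase then removes. When oxygen or iron is short, the subunits persist, pair with Arnt and switch on genes for vessel growth, glycolysis and mitochondrial turnover. The photoreceptors of the outer retina are supplied by the choroid behind the pigment epithelium, and detachment moves them away from that supply. The HIF alpha subunits are controlled largely as proteins, which messenger RNA does not report.

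Libraries held 61535690 to 75866423 recovered reads, and mitochondrial features took 20.4% to 27.5% of them. The retinal label fitted the markers: the summed level of 8 rod genes lay between 2774800 and 4206100 normalized reads (the deposited values, whole reads scaled by 1 factor per library) in all 8 libraries. Markers of neighbouring tissues varied far more between libraries than between groups. The sum of 8 pigment epithelium genes ran from 3982 to 97380 in WT, with WT 3 the highest, and from 6649 to 43006 in TG. The sum of 5 lens genes ran from 35.9 to 23906 in WT and from 115 to 19420 in TG, with WT 3 and TG 6 the highest. Müller glia (21662 to 82905 in WT, 27888 to 89467 in TG) and endothelial markers (4341 to 8589 and 3921 to 6184) overlapped between groups too. Microglia and macrophage markers were higher on average in TG for 9 of 9 genes (summed level 16543 to 24240 in WT and 16920 to 37372 in TG, with TG 5 the highest). Other lists also went 1 way: 5 of 5 lens genes were higher in TG, and 0 of 5 pericyte and 0 of 4 astrocyte genes were. In the 11 marker lists no gene was at 0 in all libraries and none passed the test. In whole retina, fewer cells of a type and less RNA per cell cannot be told apart.

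None of the 10 genes differed between TG and WT at an adjusted p under 0.05 by limma's moderated test, where 0.0101% of 19798 features did (0.00505% higher and 0.00505% lower in TG). edgeR and DESeq2 on the recovered reads also called 0 of the 10, against 0.0101% and 0.081% of all features. At an unadjusted p under 0.05, limma, edgeR and DESeq2 each took 1 of the 10, Egln3, where they took 4.64%, 4.12% and 5.34% of all features. In limma this count was 0 with a pseudocount of 5, and 0 without WT 3, WT 4, WT 7 or TG 8, and 2 (Epas1 and Egln3) without WT 5. The count was also 1 without TG 2 and 1 without TG 5, but in those fits Egln3 itself was over 0.05. The WT and TG values overlapped for all 10 genes, while 2.53% of all features had groups that did not overlap. The log2 fold change, TG minus WT, was positive for 5 genes and negative for 5, with a median of -0.04 beside -0.02 over all features tested (47.8% positive). The values by library are shown in the plot of the 10 genes.

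**Figure D1:**
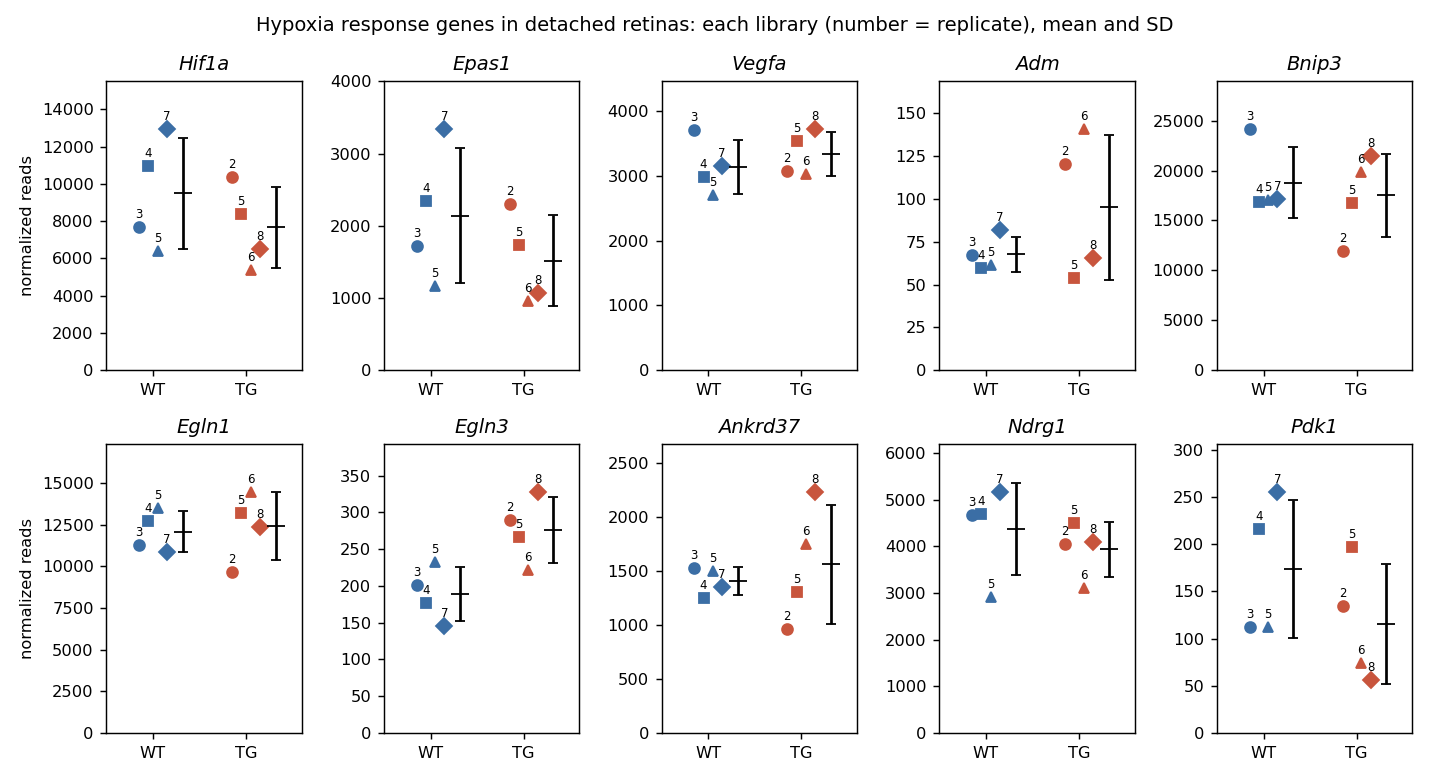
Normalized reads (y axis, linear, from 0) of the 10 hypoxia response genes in 4 WT (blue) and 4 TG (red) libraries. Points are libraries, marked with their replicate number, and black bars give the mean and SD of each group. The WT and TG points overlap in every panel, and WT 7 and WT 4 are the highest points for Hif1a, Epas1 and Pdk1.

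Counted per kilobase of exon, to allow levels of different genes to be compared, Bnip3 was the most abundant of the 10, at 8013 ± 1621 normalized reads per kb (SD, n = 8 libraries). Egln1 came next at 3413 ± 435, and neither range reached that of the next gene down. Hif1a (1456 ± 444), Ankrd37 (966 ± 247), Vegfa (756 ± 86.4), Ndrg1 (629 ± 119) and Epas1 (327 ± 144) formed a middle group in which each gene's range over libraries overlapped that of its neighbour. Hif1a was thus above Epas1 in mean level per kb, and the lowest Hif1a library (912) was above the highest Epas1 library (597). Far lower lay Egln3 (87.3 ± 22.6) and Adm (50.3 ± 19.7), whose ranges overlapped, and then Pdk1 at 18.6 ± 9.10. Exon lengths are the union of GENCODE M21 exons on GRCm38, the build of the deposited table, and isoform use was not measured.

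Hif1a, at chr12:73901324-73947554, encodes the HIF subunit found in nearly every cell. Its level was 7701, 10966, 6416 and 12938 normalized reads in WT 3, 4, 5 and 7, and 10375, 8393, 5377 and 6517 in TG 2, 5, 6 and 8. The group means were 9506 ± 2984 and 7666 ± 2193 (SD, n = 4 each), and the log2 difference between the groups came to -0.30 ± 0.23 (SE; limma, adjusted p = 0.92; 95% interval from -0.81 to 0.21). Libraries of both genotypes were spread through the range, with WT 7 the highest and TG 6 the lowest. The difference was -0.13 without WT 7, -0.14 without TG 6, -0.46 without TG 2 and -0.47 without WT 5.

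Epas1, at chr17:86753699-86833410, encodes the related subunit known for its expression in endothelium. It stood at 1723, 2344, 1166 and 3338 normalized reads in WT 3, 4, 5 and 7. In TG 2, 5, 6 and 8 it stood at 2302, 1740, 955 and 1070. The same libraries as for Hif1a, WT 7, WT 4 and TG 2, held the highest values and TG 6 the lowest. The log2 difference, -0.49 ± 0.32 (SE), missed the threshold (limma, adjusted p = 0.92), its 95% interval running from -1.18 to 0.21. It was -0.24 without WT 7, -0.29 without TG 6 and -0.74 without WT 5. Among males only (3 WT and 2 TG libraries) both factors had the opposite sign, 0.19 for Hif1a and 0.26 for Epas1. That fit called 0 of the 10 members, where 0.0202% of all features were called, and 0 had an unadjusted p under 0.05, where 5.16% of all features did.

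Among the oxygen sensors, Egln1, at chr8:124908587-124949254, encodes the main HIF prolyl hydroxylase. Its 4 WT libraries lay between 10856 and 13511 normalized reads (12099 ± 1231, SD, n = 4) and its 4 TG libraries between 9684 and 14480 (12437 ± 2027). The log2 difference between the groups came to 0.03 ± 0.14 (SE; limma, adjusted p = 0.98; 95% interval from -0.28 to 0.34). The sign of this small difference turned without WT 3 (-0.00071), WT 7 (-0.020), TG 5 (-0.0037) or TG 6 (-0.048).

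Egln3, at chr12:54178982-54203875, encodes a hydroxylase that is itself a HIF target. It stood at 201, 177, 233 and 145 normalized reads in WT 3, 4, 5 and 7 and at 289, 266, 221 and 328 in TG 2, 5, 6 and 8. Of the TG libraries, 3 lay above every WT library, while TG 6 lay just below WT 5. Its WT mean was 189 ± 36.9 and its TG mean 276 ± 44.6 (SD, n = 4), a fitted ratio of 1.47. The log2 difference, 0.55 ± 0.25 (SE), with a 95% interval from 0.0065 to 1.10, missed the threshold (limma, adjusted p = 0.92). It kept its sign under every alternative, between 0.43 and 0.69, and its adjusted p was at least 0.61 under each. Its unadjusted limma p was 0.052 with a pseudocount of 5, and it was over 0.05 without any 1 library other than WT 5 or TG 6, up to 0.12 without WT 7.

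Neither of the secreted factors passed the test. Vegfa, at chr17:46016996-46032377, encodes the vessel growth factor that drives retinal neovascularization. It was the steadiest of the 10 genes: 3706, 2983, 2710 and 3155 normalized reads in WT 3, 4, 5 and 7, and 3080, 3535, 3032 and 3723 in TG 2, 5, 6 and 8. The highest library exceeded the lowest by 1.37-fold, and 1 library of each genotype stood at the top. Its log2 difference between the groups came to 0.09 ± 0.14 (SE; limma, adjusted p = 0.95), and the 95% interval from -0.21 to 0.40 leaves out a doubling or a halving of the mean on this scale. It was 0.18 without WT 3 and 0.027 without WT 5.

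Adm, at chr7:110627655-110629819, encodes adrenomedullin, a peptide that widens vessels. It was low, at 67.5, 59.8, 61.3 and 81.9 normalized reads in WT 3, 4, 5 and 7 and at 121, 53.7, 141 and 65.4 in TG 2, 5, 6 and 8. TG 2 and TG 6 lay above all other libraries, and TG 5 lay below all of them. Its log2 difference between the groups came to 0.38 ± 0.41 (SE; limma, adjusted p = 0.92), 0.16 without TG 6, 0.23 without TG 2 and 0.62 without TG 5.

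Bnip3, at chr7:138890836-138909507, encodes a mitochondrial outer membrane protein that promotes removal of mitochondria. It had 24142, 16891, 17011 and 17121 normalized reads in WT 3, 4, 5 and 7. In TG 2, 5, 6 and 8 it had 11948, 16738, 19864 and 21488. WT 3 stood above all others and TG 2 below all others. The log2 difference between the groups came to -0.12 ± 0.18 (SE; limma, adjusted p = 0.95), 0.0072 without WT 3 and 0.053 without TG 2.

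Pdk1, at chr2:71873222-71903857, encodes a kinase that shuts off pyruvate dehydrogenase and so holds carbon out of the mitochondrial cycle. It had the widest spread of the 10, with the highest library 4.51-fold above the lowest. It stood at 113, 216, 112 and 255 normalized reads in WT 3, 4, 5 and 7 and at 135, 197, 74.1 and 56.6 in TG 2, 5, 6 and 8. TG 6 and TG 8 were the lowest. The log2 difference, -0.66 ± 0.44 (SE), missed the threshold (limma, adjusted p = 0.92), its 95% interval running from -1.60 to 0.29, and it was 0.22 among males only. It was -0.37 without TG 8 and -0.97 without TG 5.

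Ankrd37, at chr8:45996910-45999868, encodes an ankyrin repeat protein known as a HIF target. It had 1533, 1250, 1503 and 1349 normalized reads in WT 3, 4, 5 and 7 and 966, 1307, 1749 and 2235 in TG 2, 5, 6 and 8. The 4 WT values lay inside the TG range. The log2 difference between the groups came to 0.09 ± 0.22 (SE; limma, adjusted p = 0.97), 0.29 without TG 2, 0.0093 without TG 6 and -0.11 without TG 8. Its feature overlaps that of Ufsp2, on the opposite strand, which is more abundant (7360 normalized reads on average). At its other end it overlaps that of Lrp2bp, also on the opposite strand and less abundant (83.4 on average). Reads at either edge could have been assigned to Ankrd37 or to its neighbour.

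Ndrg1, at chr15:66929318-66969644, encodes a stress-induced cytoplasmic protein of myelinating and epithelial cells. Its WT libraries lay between 2925 and 5171 normalized reads (4365 ± 987, SD, n = 4) and its TG libraries between 3108 and 4501 (3937 ± 589). WT 5 and TG 6 were the low libraries. The log2 difference between the groups came to -0.13 ± 0.18 (SE; limma, adjusted p = 0.94). With 1 library left out it lay between -0.31 (WT 5 left out) and -0.020 (TG 6 left out), and it was 0.024 with both WT 3 and TG 6 left out. In GENCODE M21, 5 of the 10 genes (Hif1a, Adm, Bnip3, Ankrd37 and Ndrg1) are overlapped by a gene on the other strand. The sources used here do not say whether the counting used strand.

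**Figure D2:**
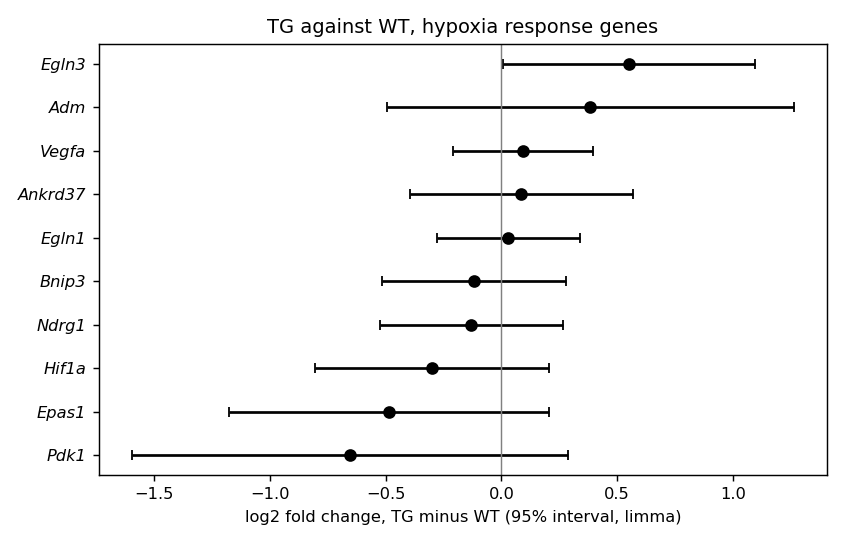
Log2 fold change of each of the 10 genes, TG minus WT (x axis), with its 95% interval from limma over 4 WT and 4 TG libraries. Of the 10 intervals, 9 include 0, and that of Egln3, from 0.0065 to 1.10, lies just above it.

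Relations between members were computed across the 8 libraries. Of 45 pairs tested, 1 passed at an adjusted p under 0.05 (exact permutation of Pearson's r, two-sided): Hif1a and Epas1 varied together with r = 0.99 (p = 0.00025, adjusted p = 0.011; Spearman rho 0.98, p = 0.00040). Without the 2 libraries farthest from the median of Hif1a, r was 0.97, and after each group's mean was subtracted it was 0.98. Pdk1 followed the same order of libraries, with r = 0.87 to Epas1 (p = 0.0067, adjusted p = 0.14, exact permutation) and rho 0.95 (p = 0.0011, adjusted p = 0.026, exact permutation). Ndrg1 stood at r = 0.78 to Hif1a and to Epas1 (adjusted p = 0.17 each, exact permutation).

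Of the other pairs given here, none passed by Pearson's r. Bnip3 and Ankrd37 had r = 0.81 (p = 0.022, adjusted p = 0.17, exact permutation), and 0.96 without the 2 libraries farthest from the median of Bnip3. Ankrd37 had r = -0.72 to Epas1 and r = -0.72 to Pdk1 (adjusted p = 0.23 each, exact permutation), and Bnip3 had r = -0.45 to Pdk1 (adjusted p = 0.55, exact permutation). Egln1 stood at r = -0.68 to Hif1a (p = 0.064, adjusted p = 0.26, exact permutation). Vegfa had r = -0.06 to Hif1a and r = -0.04 to Epas1, and Vegfa was highest in TG 8 while both factors were highest in WT 7. At an unadjusted p under 0.05 there were 8 of 45 pairs.

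**Figure D3:**
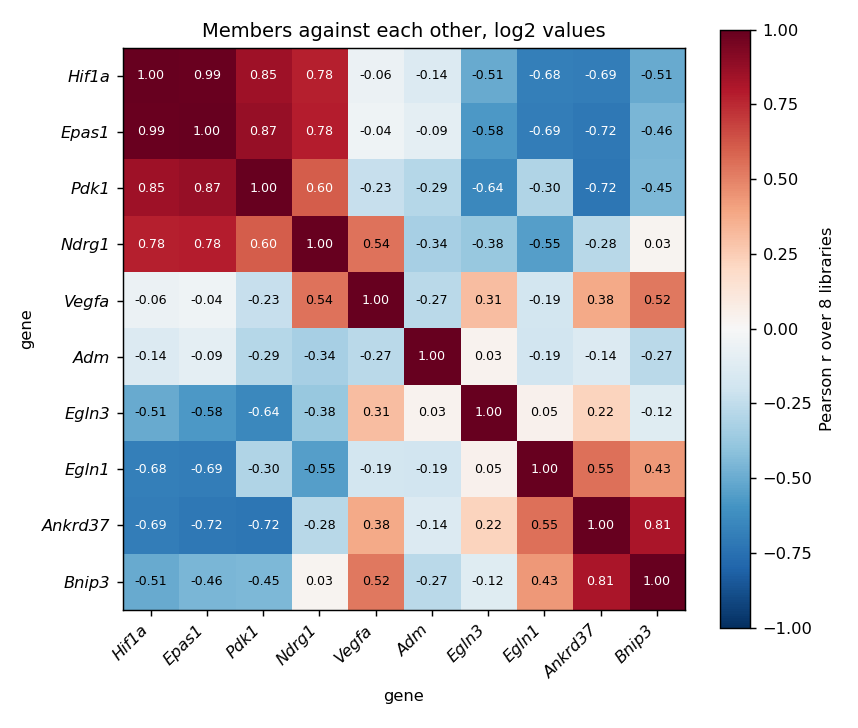
Pearson r between the log2 levels of each pair of the 10 genes over 8 libraries (red positive, blue negative, value printed in each cell). Hif1a, Epas1, Pdk1 and Ndrg1 form a block of positive values at the top left, and Bnip3 and Ankrd37 are positive to each other and negative to Hif1a, Epas1 and Pdk1.

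HIF binds a core of ACGTG or GCGTG. The promoters of Bnip3 and Ankrd37 are shown because they hold the most matches among the members, and that of Pdk1 because 1 of its matches begins 2 bases before the start. They are RefSeq windows of 300 bases on GRCm38.p6, from 250 bases before to 50 after the start, 5′ to 3′ on the gene's strand. Capitals mark every match to ACGTG or GCGTG on either strand (CACGT and CACGC are the same letters read from the other strand, and CACGTG counts once on each). The windows are chr7:138909457-138909756 (minus strand), chr8:45999801-46000100 (minus strand) and chr2:71872974-71873273 (plus strand).
Bnip3: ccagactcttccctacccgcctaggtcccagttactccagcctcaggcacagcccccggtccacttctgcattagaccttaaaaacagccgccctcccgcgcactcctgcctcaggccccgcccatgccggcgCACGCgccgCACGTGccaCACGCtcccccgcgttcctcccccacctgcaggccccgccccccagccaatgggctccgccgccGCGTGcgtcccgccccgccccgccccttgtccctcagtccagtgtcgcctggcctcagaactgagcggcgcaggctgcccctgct
Ankrd37: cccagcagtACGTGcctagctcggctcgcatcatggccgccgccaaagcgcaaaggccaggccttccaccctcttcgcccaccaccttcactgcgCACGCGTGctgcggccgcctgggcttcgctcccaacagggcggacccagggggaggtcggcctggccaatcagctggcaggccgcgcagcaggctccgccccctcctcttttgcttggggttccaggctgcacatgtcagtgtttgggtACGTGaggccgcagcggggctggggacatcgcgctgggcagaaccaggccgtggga
Pdk1: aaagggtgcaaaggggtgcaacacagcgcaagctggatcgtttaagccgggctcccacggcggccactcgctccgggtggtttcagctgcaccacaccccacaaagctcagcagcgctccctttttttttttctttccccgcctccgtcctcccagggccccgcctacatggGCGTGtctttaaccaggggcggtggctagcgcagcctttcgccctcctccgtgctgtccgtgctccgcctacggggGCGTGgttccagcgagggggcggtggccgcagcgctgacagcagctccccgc
Bnip3 held 5 matches in 4 separate runs, and Ankrd37 held 4 matches in 3 runs, of which the last, ACGTG, begins 6 bases before the start. Pdk1 held 2 matches, both GCGTG, beginning 78 and 2 bases before the start. Of 32851 promoter windows of this length, 43.8% held at least 1 match, 20.6% at least 2, 3.86% at least 4 and 1.66% at least 5. RefSeq windows matched 8 members, and for 7 of them a window held the 5′ end of the deposited feature. Adm and Egln1 held 2 matches in that window and Egln3 held 1. The Vegfa window held 0. Of the entries at another start, that of Vegfa held 2 matches and that of Pdk1 held 0. Epas1 and Ndrg1 had no entry, and the Hif1a entry, which held 3 matches, also lies at another start. A match is a description of letters and not a measured site.

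The order of libraries shared by Hif1a and Epas1 was also the order of a measure of the whole library. Exon length was available for 93.1% of the 16442 tested features with a symbol, and for each library the median log2 deviation of the 2447 features of at most 2 kb was subtracted from that of the 6213 features of at least 5 kb. This length index, which left out the 10 members, was 0.33, 0.31 and 0.24 in WT 7, WT 4 and TG 2, -0.05 and -0.07 in TG 5 and WT 3, and -0.17, -0.25 and -0.38 in TG 8, WT 5 and TG 6. The index was chosen after the data were seen, so the p-values given with it are descriptions and not tests. Hif1a followed the index with r = 0.98 (p = 2.5e-05, adjusted p = 0.0035, exact permutation, the smallest p that these permutations can give) and rho 1, and r was 0.98 within genotype and without the 2 farthest libraries. Epas1 followed it with r = 0.95 (p = 0.00087, adjusted p = 0.061, exact permutation) and rho 0.98 (adjusted p = 0.028, exact permutation).

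Of the 10 genes, the 4 with the longest exons, Pdk1 (7.779 kb), Ndrg1 (6.596), Hif1a (5.896) and Epas1 (5.59), were those with positive r to the index, at 0.78, 0.76, 0.98 and 0.95. Vegfa (4.29 kb) stood at -0.07. Shorter genes stood below 0, at -0.70 for Egln1 (3.59 kb), -0.45 for Egln3 (2.66), -0.52 for Bnip3 (2.27), -0.10 for Adm (1.62) and -0.68 for Ankrd37 (1.54). Apart from Hif1a, none of these passed after adjustment over the 140 relations tested between members and 14 library measures, which included total reads, mitochondrial share and the 11 marker sums. No marker sum, total or mitochondrial share passed for any member by Pearson's r or by rho. The lowest unadjusted p was that of pericyte markers against Egln1. It was 0.044 by r (adjusted p = 0.69, exact permutation) and 0.022 by rho (adjusted p = 0.61, exact permutation). With a straight line on the length index removed from both genes, r between Hif1a and Epas1 was 0.89 and that between Bnip3 and Ankrd37 was 0.73, and 0 of the 45 pairs passed. The largest r was then 0.91, between Vegfa and Ndrg1 (0.54 before). Hif1a with Pdk1 (0.85 before) and Bnip3 with Ndrg1 (0.03 before) each stood at 0.76. With the index as a term beside genotype, the log2 fold changes of Hif1a, Epas1 and Pdk1 were -0.033, -0.12 and -0.32, while Egln3 stood at 0.50 and Vegfa at 0.099. That fit called 0 of the 10, where 0.00505% of all features were called, and 0 had an unadjusted p under 0.05, where 6.58% of all features did. What sets the index was not tested.

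**Figure D4:**
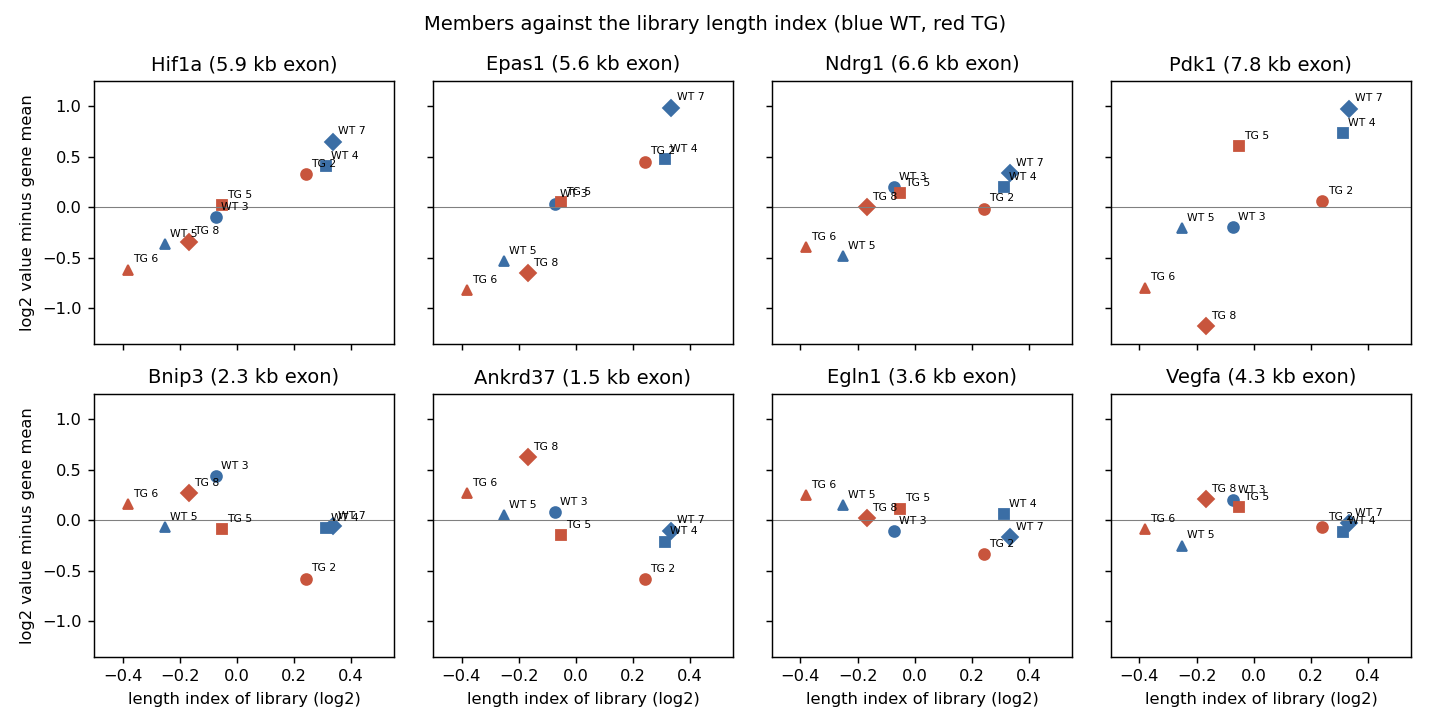
Log2 level of 8 members minus the gene's mean (y axis) against the length index of the library (x axis, log2), 1 point per library (blue WT, red TG), with exon length in each title. Hif1a and Epas1 rise along the index from TG 6 to WT 7 with both genotypes on 1 line, while Bnip3, Ankrd37 and Egln1 have r of -0.52, -0.68 and -0.70, which did not pass, and Vegfa has -0.07.

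Many features shared this order, and those most like each member were named by Pearson r over the 8 libraries, as a description. Of the 19798 tested features, 573 had an r above 0.9 with Hif1a, 500 with Epas1, 174 with Pdk1 and 102 with Ndrg1. The other members had 73 (Bnip3), 43 (Egln1), 36 (Ankrd37), 16 (Egln3), 13 (Vegfa) and 13 (Adm). Closest to Hif1a were Rad21, a cohesin subunit, Kat2b, a histone acetyltransferase, and Ibtk (r = 0.995, 0.995 and 0.99). Closest to Epas1 were Cdk19, Erbb2ip and Eif4g2 (0.99 each). Vegfa was closest to P2ry12, a receptor of microglia (0.95), then Pars2 (0.92) and Ptpre (0.91). The summed microglia and macrophage markers, which include P2ry12, had r = 0.40 to Vegfa (p = 0.33, adjusted p = 0.92, exact permutation). Without the 2 libraries farthest from the median of that sum, r was -0.04. Ankrd37 was closest to Nhp2l1 (0.98) and to Pgam1, a glycolytic enzyme (0.96), and Bnip3 to Mplkip (0.97) and Psmd10 (0.96). Egln3 was closest to Fkbp11 (0.95), Egln1 to Rrp9 (0.96), Adm to Nprl3 (0.96), Ndrg1 to Dcun1d2 (0.98) and Pdk1 to Adal (0.98).

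Around the 10 genes, 87 other genes of the pathway in 7 lists were all found in the table, and 86 reached the filter on low values. None passed with limma, edgeR or DESeq2. At an unadjusted p under 0.05 limma took 9 of the 86, beside 4.64% of all features, and the median log2 fold change was -0.01 (41 positive and 45 negative, or 50 positive with upper-quartile scaling) beside -0.02 over all features. The groups did not overlap for 3 of the 86: Arnt, Pfkfb4 and a joined feature that carries the symbols Epo, Gnb2 and Mir6418, beside 2.53% of all features.

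In the list of oxygen sensing and HIF partners, 3 of 10 genes were higher and 7 lower in TG. Arnt, the partner of both HIF factors, had 882, 978, 896 and 870 normalized reads in WT 3, 4, 5 and 7 and 781, 865, 592 and 575 in TG 2, 5, 6 and 8. Every TG library thus lay below every WT library, with TG 5 at 865 and WT 7 at 870, and the log2 difference between the groups came to -0.39 ± 0.18 (SE; limma, adjusted p = 0.92). Its feature also carries the symbol Gm4349. Arnt2 had 71.9 ± 18.8 in WT and 37.3 ± 20.6 in TG, and Ep300, a HIF coactivator, 119 ± 77.8 and 54.6 ± 45.9 (SD, n = 4 each), with TG 6 the lowest library for both. Vhl stood at a log2 fold change of -0.06 ± 0.15 (SE), and 0.011 or 0.023 without TG 6 or TG 2.

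Of the VEGF family and its receptors, 5 of 8 were higher and 3 lower in TG. Pgf, placenta growth factor, averaged 143 ± 61.9 in the WT libraries and 306 ± 259 in the TG libraries (SD, n = 4), with 690 in TG 5 and at most 210 in the other TG libraries. Nrp2, a coreceptor, differed by 1.18 ± 0.75 (SE) on the log2 scale, TG minus WT, and did not pass. The VEGF receptor genes of endothelium, Kdr and Flt1, stood at -0.70 ± 0.64 and -0.51 ± 0.46 (SE), with WT 7 the highest library for both (830 and 1980 normalized reads). With males only they stood at 0.42 and 0.41. Among adrenomedullin relatives and receptors, 4 of 5 were higher, and Ramp1, a receptor partner, had 391 ± 140.5 in WT and 576 ± 145 in TG. Another of those higher, the Ramp2 feature, also carries the symbol Vps25, and which gene gave its reads could not be told. Adm2 stood at 0.94 ± 0.55 and Ramp3 at -0.16 ± 0.16 (SE).

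For mitophagy, 1 of 7 genes was higher and 6 lower, with Phb2 at 0.17, Bcl2l13 at -0.43, Fundc1 at -0.07 and Bnip3l, the closest relative of Bnip3, at -0.03 on the log2 scale. Bnip3l turned to 0.019 with upper-quartile scaling. Pyruvate dehydrogenase control had 3 of 10 higher and 7 lower. Pdk3, a relative of Pdk1, averaged 1808 ± 182 normalized reads in the WT libraries and 2271 ± 348 in the TG libraries (SD, n = 4), a log2 difference of 0.32 ± 0.15 (SE; limma, adjusted p = 0.92), while Pdp1, the opposing phosphatase, stood at -0.31 ± 0.16 and Pdpr at -0.54 ± 0.43. The Ndrg relatives Ndrg2, Ndrg3 and Ndrg4 stood at -0.15, -0.21 and -0.01, and Ndrg4 turned to 0.035 with upper-quartile scaling.

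Among 43 other HIF targets, 25 were higher and 18 lower in TG. Slc2a1, the glucose transporter, stood at 0.0067 ± 0.18, Pgk1 at 0.05 ± 0.11 and Ldha, lactate dehydrogenase, at -0.05 ± 0.18 (log2 fold change and SE). Stc2, a secreted glycoprotein induced by stress, had 60.4, 121, 118 and 328 normalized reads in WT 3, 4, 5 and 7 and 312, 197, 319 and 303 in TG 2, 5, 6 and 8. WT 7 lay above all TG libraries, and the log2 difference between the groups came to 1.09 ± 0.42 (SE; limma, adjusted p = 0.92). Hmox1, a haem-degrading enzyme, had 657, 528, 788 and 418 normalized reads in WT 3, 4, 5 and 7. In TG 2, 5, 6 and 8 it had 3984, 4441, 1315 and 495, so TG 8 lay inside the WT range. The log2 difference, 1.66 ± 0.54 (SE), missed the threshold (limma, adjusted p = 0.92). Among males only, 3 WT and 2 TG libraries (TG 2 and TG 5), Hmox1 passed (2.69, adjusted p = 0.00059, limma), where 0.0202% of all features were called. Pfkfb4, a regulator of glycolysis chosen after its values were seen, averaged 133 ± 14.8 in the WT libraries and 75.8 ± 20.03 in TG (SD, n = 4 each; log2 fold change -0.84 ± 0.34, SE). The joined Epo, Gnb2 and Mir6418 feature had 9911 ± 1686 and 12745 ± 286 normalized reads, and which of its genes gave the reads could not be told.

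**Figure D5:**
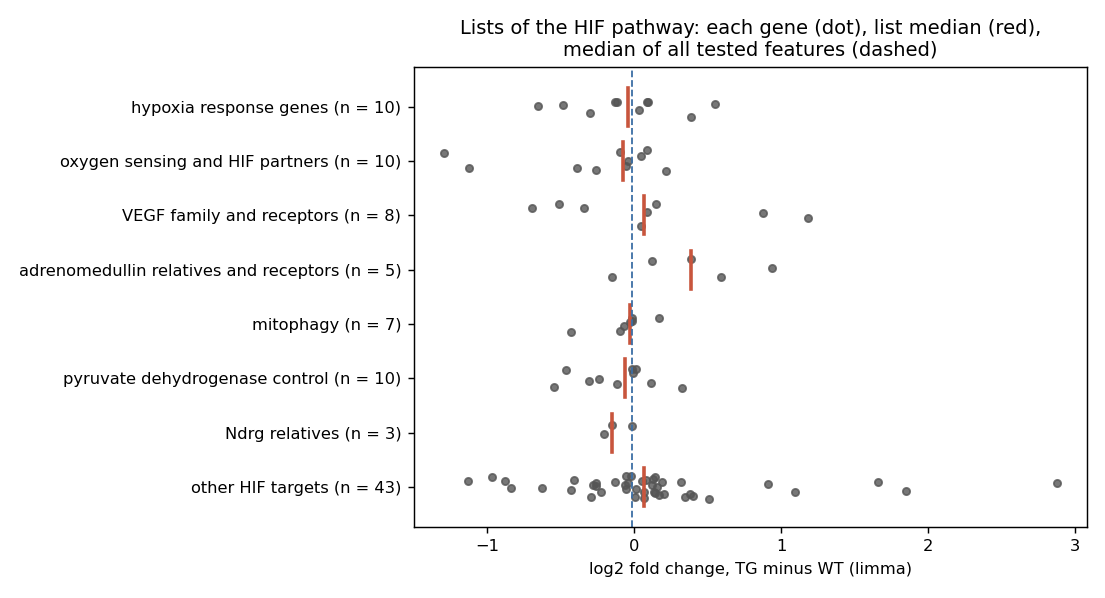
Log2 fold change, TG minus WT (x axis), of the 10 members and of each measured gene of the 7 pathway lists (dots), with the list median (red bar) and the median of all tested features (dashed line, -0.02). Dots lie on both sides of 0 in every list except the 3 Ndrg relatives, which lie between -0.21 and -0.01.

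Sex and eye were unequal between the groups, so both were also fitted beside genotype. With sex as a term, limma called 0 of the 10 members (0.0303% of all features were called, 0.0253% higher in males and 0.00505% lower), and 0 had an unadjusted p under 0.05, where 3.23% of all features did. The smallest p was that of Ankrd37, with 1312 ± 228 normalized reads in 5 males and 1778 ± 444 in 3 females (SD) and a log2 difference of -0.43 ± 0.22 (male minus female, SE; adjusted p = 0.9995, limma). This count rests on WT 7, the 1 WT female. Without it, 5 of the 10 had an unadjusted p under 0.05 for male against female, where 7.7% of all features did. Males were then higher for Hif1a (0.66), Epas1 (0.98) and Pdk1 (1.32) and lower for Bnip3 (-0.55) and Ankrd37 (-0.81) on the log2 scale. None passed (lowest adjusted p 0.62, limma). No WT female was left, so this comparison was of TG 2 and TG 5 with the females TG 6 and TG 8. The length index was 0.24 and -0.05 in those males and -0.38 and -0.17 in those females. Sex and the index cannot be told apart there. With sex and eye fitted together, 2 of 10 (Bnip3 and Ankrd37) were under 0.05 for sex, where 3.43% of all features were, and none passed.

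For right against left eye, with genotype as the other term, limma called 0 of 10, as it did of all features (0%), and 0 had an unadjusted p under 0.05, where 3.7% of all features did. Without TG 6, 3 of 10 were under 0.05, Hif1a (-0.58, right minus left), Epas1 (-0.88) and Egln1 (0.30), where 10.8% of all features were, and none passed (lowest adjusted p 0.38, limma). The left eyes were then WT 7 and TG 2, with a length index of 0.33 and 0.24, while the right eyes ran from -0.25 to 0.31. With sex and eye fitted together, 2 of 10 (Bnip3 and Ankrd37) were under 0.05 for eye, where 3.88% of all features were, and none passed. Adm had 81.9 to 141 normalized reads in the 3 left eyes and 53.7 to 67.5 in the 5 right eyes, so the eyes did not overlap, where 2.98% of all features had eyes that did not overlap. The log2 difference, -0.80 ± 0.39 (right minus left, SE), missed the threshold (limma, adjusted p = 0.998), and with eye as a term the genotype difference of Adm was 0.18. In the WT group the 1 female was also the 1 left eye, so sex and eye cannot be told apart there.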

How the data were processed

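The authors deposited 1 signal value per feature and library, which the name of the deposited table calls DESeq2-normalized gene expression. Tools listed, per the submitters' processing notes, are STAR 2.4.0, DESeq2, SAMtools, Picard and FastQC, with mm10 and GRCm38 as builds. No source used here gives the counting tool, the strand setting or the annotation release. All values (100%) were within 0.01 of whole multiples of what 1 read is worth in their column, as counts divided by 1 size factor would be, so reads were recovered. Sample columns left unmapped numbered 0, and no libraries were near-copies (lowest chi-square per feature between a pair 46.1).

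TG and WT were compared with limma 3.58.1 in R 4.3.3, fitted to log2(value + 1) with a trended prior variance for 19798 features (mean of 10 or more), adjusted by Benjamini-Hochberg at 0.05. This log2 scale understates changes of low genes. edgeR 4.0.16 (quasi-likelihood) and DESeq2 1.42.0 on recovered reads were alternatives. The procedure was tested on simulated data. Correlations used all 40320 orders of the 8 libraries. The members and lists were chosen with earlier results of these data known. The 10 members are always named. Of each pathway list the 3 genes with the smallest p are named, as are Slc2a1, Pgk1, Ldha, Vhl, Arnt, Kdr and Bnip3l, and for each member up to 3 features with a symbol and a mean of at least 50 that correlate best with it. Alternatives changed scaling, pseudocount, filter, terms, samples or the test, 1 at a time. The length index was chosen after seeing the data.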

Additional observations from a re-analysis of the deposited data

Results flagged for a closer look

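Dixon's gap test was applied to the 10 members and the named pathway genes in each group of 4 libraries, 74 groups in all, and marked 5 libraries as far from the other 3 of their group. Chance alone marks about 1 group in 20. Bnip3 in WT 3 stood at 24142 normalized reads, while the other WT libraries lay between 16891 and 17121. WT 3 also held the highest pigment epithelium marker sum, 97380, while TG 2 held the next highest, 43006, and the lowest Bnip3 value, 11948. Over the 8 libraries that sum and Bnip3 had r = 0.11 (p = 0.78, adjusted p = 0.97, exact permutation) and rho 0.095 (p = 0.84, exact permutation). Slc2a1 in WT 7 stood at 8179, with the others between 5201 and 5482, and Ndrg2 in WT 7 at 11014, with the others between 4747 and 5808. In TG 5, Pgf stood at 690, with the others between 128 and 210, and Stc2 at 197, with the others between 303 and 319.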

How the results depend on the processing

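No member passed the threshold under any alternative tried, and Vegfa, Adm and Egln3 kept their sign under each. The number of all features called was 1 with a pseudocount of 0.5, no filter, a minimum mean of 50, sex as a term, no variance trend or the length index as a term, 4 with males only, 16 with DESeq2, and 1 to 3 without 1 library, against 2. The members' median log2 fold change was 0.14 with males only and ran from -0.13 to 0.093 without 1 library. With the length index removed, 0 pairs of members passed. Without the 2 farthest libraries 0 passed, but with 6 libraries left a single pair cannot reach an adjusted p below 0.0625, so this says nothing of those libraries.

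With males only the sign turned for Hif1a (0.19), Epas1 (0.26), Egln1 (-0.14), Ankrd37 (-0.34), Ndrg1 (0.092), Pdk1 (0.22), Flt1 (0.41), Kdr (0.42), Bnip3l (0.30), Pdpr (0.20), Ndrg2 (0.30), Ndrg4 (0.41) and Pgk1 (-0.011), and Hmox1 passed (2.69). With the length index as a term it turned for Egln1 (-0.060), Ankrd37 (-0.076), Ndrg1 (0.012), Kdr (0.013), Bnip3l (0.088), Ndrg2 (0.072) and Ndrg4 (0.30). Without WT 3 and TG 6 together it turned for Egln1 (-0.079), Ndrg1 (0.024), Vhl (0.021), Bnip3l (0.13) and Fundc1 (0.033). It turned with sex as a term for Ankrd37 (-0.022), Bnip3l (0.026) and Slc2a1 (-0.026), with eye as a term for Vhl (0.012) and Slc2a1 (-0.028), with upper-quartile scaling for Bnip3l (0.019) and Ndrg4 (0.035), and with DESeq2 for Slc2a1 (-0.0015). The cause was not tested. Without 1 library, values ran from -0.23 to 0.053 for Bnip3, -0.048 to 0.15 for Egln1, -0.11 to 0.29 for Ankrd37, -0.13 to 0.023 for Vhl, -0.15 to 0.088 for Bnip3l, -0.18 to 0.033 for Fundc1, -0.28 to 0.12 for Ndrg2, -0.26 to 0.24 for Ndrg4, -0.056 to 0.16 for Slc2a1, -0.0024 to 0.099 for Pgk1 and -0.18 to 0.073 for Ldha. No paired analysis was made, because the labels do not pair any WT retina with a TG retina.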
